A study of Mus musculus with 24 samples.

Results

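Myosin light chains and the kinases that phosphorylate them were followed in the quadriceps and the soleus of nebulin conditional knockout (cKO) and control mice. The set holds the 6 light chain genes Myl1, Myl2, Myl3, Myl4, Myl6b and Mylpf and the 2 kinase genes Mylk2 and Mylk4. A gene entered by its symbol and was read by the probe set annotated to that symbol alone. Each of the 8 had 1 such probe set, and they are 8 of 19938 genes read on the arrays. All 8 passed a filter that removed dim genes, which left 15999 genes for testing. RNA was hybridised to 24 Affymetrix arrays, 6 per group. The groups were quadriceps cKO, quadriceps control, soleus cKO and soleus control. Every mouse was a male aged 40 to 42 days on a mixed background of C57BL/6J and 1219S6/SvEvTac (spelled as in the labels). Every mouse carried 2 copies of a conditional allele of nebulin (Neb), the giant thin filament protein of the sarcomere. The cKO mice also carried 1 copy of an MCK-Cre transgene, a recombinase under the muscle creatine kinase promoter, and the controls carried none. That promoter acts in skeletal muscle fibres and in the heart, not in the other cells of a muscle. Per the submitters, cKO quadriceps were smaller than control quadriceps, and soleus size did not differ significantly.

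A sarcomeric myosin molecule is built from a pair of heavy chains, and the neck of each heavy chain binds an essential and a regulatory light chain. The light chains stiffen the neck, which acts as a lever arm, and their isoforms go with fibre type: slow fibres use the isoforms they share with the heart ventricle, and fast fibres use their own. Phosphorylation of the regulatory light chain by a calmodulin-dependent kinase moves the heads away from the thick filament and increases force at submaximal calcium. A myosin phosphatase removes the phosphate. The quadriceps of the mouse is mostly fast and the soleus holds many slow fibres.

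RefSeq promoter sequences were at hand for 7 of the 8 genes, in 8 windows of 250 bases ending at the base before the annotated start (GRCm38.p6, 5′ to 3′ on the gene's strand). They are shown for 4 genes: Myl6b and Mylk4, which changed in opposite directions in both muscles, Myl3, whose change had opposite signs in the muscles, and Myl4, the isoform of developing muscle. Capitals mark matches, on either strand, to the E-box CAGCTG, the M-CAT element CATTCC, a MEF2 site or a CArG box, all elements known from muscle promoters. Myl6b is at chr10:128498686-128498935, minus strand, Mylk4 at chr13:32783965-32784214, minus strand, Myl3 at chr9:110763428-110763677, plus strand, and Myl4 at chr11:104550413-104550662, plus strand. The Myl6b and Myl3 windows adjoin the outer start of the gene's full span. Those of Mylk4 and Myl4 lie inside the span, before an internal start, so the outer start of these genes is not covered.
Myl6b: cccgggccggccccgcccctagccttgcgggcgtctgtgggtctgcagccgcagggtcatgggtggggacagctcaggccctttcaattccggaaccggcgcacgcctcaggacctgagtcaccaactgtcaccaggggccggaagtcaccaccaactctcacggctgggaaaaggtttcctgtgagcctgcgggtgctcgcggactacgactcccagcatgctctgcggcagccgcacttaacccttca
Mylk4: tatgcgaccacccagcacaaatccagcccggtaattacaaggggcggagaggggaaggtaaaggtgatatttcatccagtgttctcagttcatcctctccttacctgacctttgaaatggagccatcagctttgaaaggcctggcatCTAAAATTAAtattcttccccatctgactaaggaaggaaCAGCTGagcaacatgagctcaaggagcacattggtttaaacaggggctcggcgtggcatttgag
Myl3: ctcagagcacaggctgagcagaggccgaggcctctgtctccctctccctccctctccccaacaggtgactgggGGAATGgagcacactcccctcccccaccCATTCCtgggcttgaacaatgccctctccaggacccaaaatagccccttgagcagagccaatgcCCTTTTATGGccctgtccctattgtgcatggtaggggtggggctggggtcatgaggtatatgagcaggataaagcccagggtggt
Myl4: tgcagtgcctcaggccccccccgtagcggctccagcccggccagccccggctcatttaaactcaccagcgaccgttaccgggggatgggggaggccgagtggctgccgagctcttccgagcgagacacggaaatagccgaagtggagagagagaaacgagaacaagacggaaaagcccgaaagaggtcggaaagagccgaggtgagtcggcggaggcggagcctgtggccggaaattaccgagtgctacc
The Mylk4 window held a MEF2 match 103 to 94 bases before the start and an E-box match 64 to 59 bases before it. The Myl3 window held M-CAT matches 177 to 172 and 149 to 144 bases before the start and a CArG match 85 to 76 bases before it. In the Myl6b and Myl4 windows none of these letters occurred, which says nothing of the factors themselves. Across 32851 such windows of all genes, 13% held CAGCTG, 12.6% CATTCC, 2.92% the MEF2 motif and 1.47% the CArG motif. Of the 8 windows of the light chain and kinase genes, 4, 2, 1 and 1 held them, in that order. No match of one motif overlapped a match of another in the 4 windows shown.

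Values below are log2 of the deposited RMA intensity, so a difference of 1 is a doubling of signal. Array medians lay between 4.74 and 4.94 and array maxima between 13.2 and 13.3. A level of one probe set is not compared with that of another, because probe sets differ in response. Neb was lower in cKO: it averaged 10.84 in quadriceps cKO against 12.29 in quadriceps controls (log2 change -1.45, SE 0.11, limma adjusted p = 1.4e-10), and 11.24 in soleus cKO against 12.38 in soleus controls (-1.14, SE 0.11, limma adjusted p = 2.27e-08). Of 6 skeletal muscle markers, 3 were higher and 1 lower in quadriceps cKO (12.5 to 12.6 in cKO, 12.07 to 12.48 in controls). In soleus 1 was higher and 0 lower (12.63 to 12.70 in cKO, 12.48 to 12.66 in controls). Markers of other cells and states moved with genotype as well. Over all genes tested, 22.3% were higher and 17.7% lower in quadriceps cKO at a limma adjusted p under 0.05. In soleus cKO these shares were 13.2% and 9.94%. In quadriceps 5 of 6 macrophage markers were higher in cKO, with a mean level per array of 6.56 to 6.73 in cKO and 5.36 to 5.94 in controls. In soleus 5 of 6 were higher too, at 6.08 to 6.57 in cKO and 5.42 to 5.76 in controls. Fibroblast markers were higher for 5 of 6 genes in quadriceps (9.52 to 9.71 in cKO, 8.77 to 9.50 in controls) and for 4 of 6 in soleus (9.23 to 9.59 in cKO, 8.81 to 9.16 in controls). Slow fibre markers other than light chains were higher for 6 of 6 genes in quadriceps (10.94 to 11.47 in cKO, 8.40 to 9.97 in controls) and for 3 of 6 in soleus (12.19 to 12.24 in cKO, 11.53 to 12.11 in controls). Fast fibre markers were lower for 4 of 7 genes in quadriceps (12.21 to 12.43 in cKO, 12.59 to 12.69 in controls) and for 7 of 7 in soleus (9.80 to 10.58 in cKO, 10.88 to 12.04 in controls). Embryonic muscle markers were higher for 5 of 6 genes in quadriceps (9.25 to 9.62 in cKO, 6.76 to 7.40 in controls) and for 6 of 6 in soleus (8.43 to 8.87 in cKO, 6.70 to 7.77 in controls). Satellite cell markers were higher for 5 of 6 genes in quadriceps (6.78 to 6.95 in cKO, 6.28 to 6.52 in controls) and for 2 of 6 in soleus (6.57 to 6.85 in cKO, 6.32 to 6.61 in controls). Adipocyte markers were higher for 3 of 5 genes in quadriceps (8.11 to 9.81 in cKO, 7.35 to 8.80 in controls), and in soleus they averaged 7.17 to 8.34 in cKO and 7.03 to 7.68 in controls. Endothelial markers were lower for 4 of 6 genes in soleus (7.56 to 7.91 in cKO, 8.16 to 8.73 in controls), and in quadriceps they averaged 7.53 to 8.16 in cKO and 7.78 to 8.49 in controls. No marker lay below the dim limit on all arrays. The part of these lists in the results was not tested, and in whole muscle fewer cells of a type and less RNA per cell cannot be told apart. One library stood apart for several of the genes: soleus control 1 had the lowest Mylk4 and the highest Myl2, Myl3, Myl4 and Myl6b of the soleus controls. Its slow fibre markers averaged 12.11 (11.53 to 11.67 in the other soleus controls), its fast fibre markers 10.88 (11.18 to 12.04) and its embryonic markers 7.77 (6.70 to 6.97).

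In quadriceps 7 of the 8 genes changed in cKO. The slow-type chains Myl2, Myl3 and Myl6b and the embryonic chain Myl4 were higher, the fast regulatory chain Mylpf and both kinases were lower, and Myl1 did not pass the test. Over all genes tested, 40.0% were called at a limma adjusted p under 0.05, 22.3% higher and 17.7% lower; the higher ones were 55.7% of the called, and 37.5% with arrays centred on their 75th percentile. No called change of the 8 genes turned its direction under another scaling, while the uncalled Myl1 change was -0.05 under that centring. The groups did not overlap for 6 of the 8 genes, against 16.2% of all genes. In soleus 4 of the 8 changed: Myl4 and Myl6b were higher, Myl3 and Mylk4 were lower, and Myl1, Myl2, Mylpf and Mylk2 did not pass. There 23.1% of all genes were called, 13.2% higher and 9.94% lower. The higher ones were 57% of the called, with 66.9% under median and 47.3% under 75th percentile centring. The groups did not overlap for 5 of the 8 against 12.8% of all genes. The median change of the 8 genes was 0.20 in quadriceps and 0.08 in soleus, where the medians of all genes were -0.01 and -0.02. By size of change, in either direction, Myl6b was number 26 of 15999 genes in quadriceps and number 25 in soleus, and Mylk4 was number 100 and number 21. Myl2, Myl4 and Mylk2 were numbers 82, 108 and 203 in quadriceps and 2933, 972 and 8731 in soleus.

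**Figure D1:**
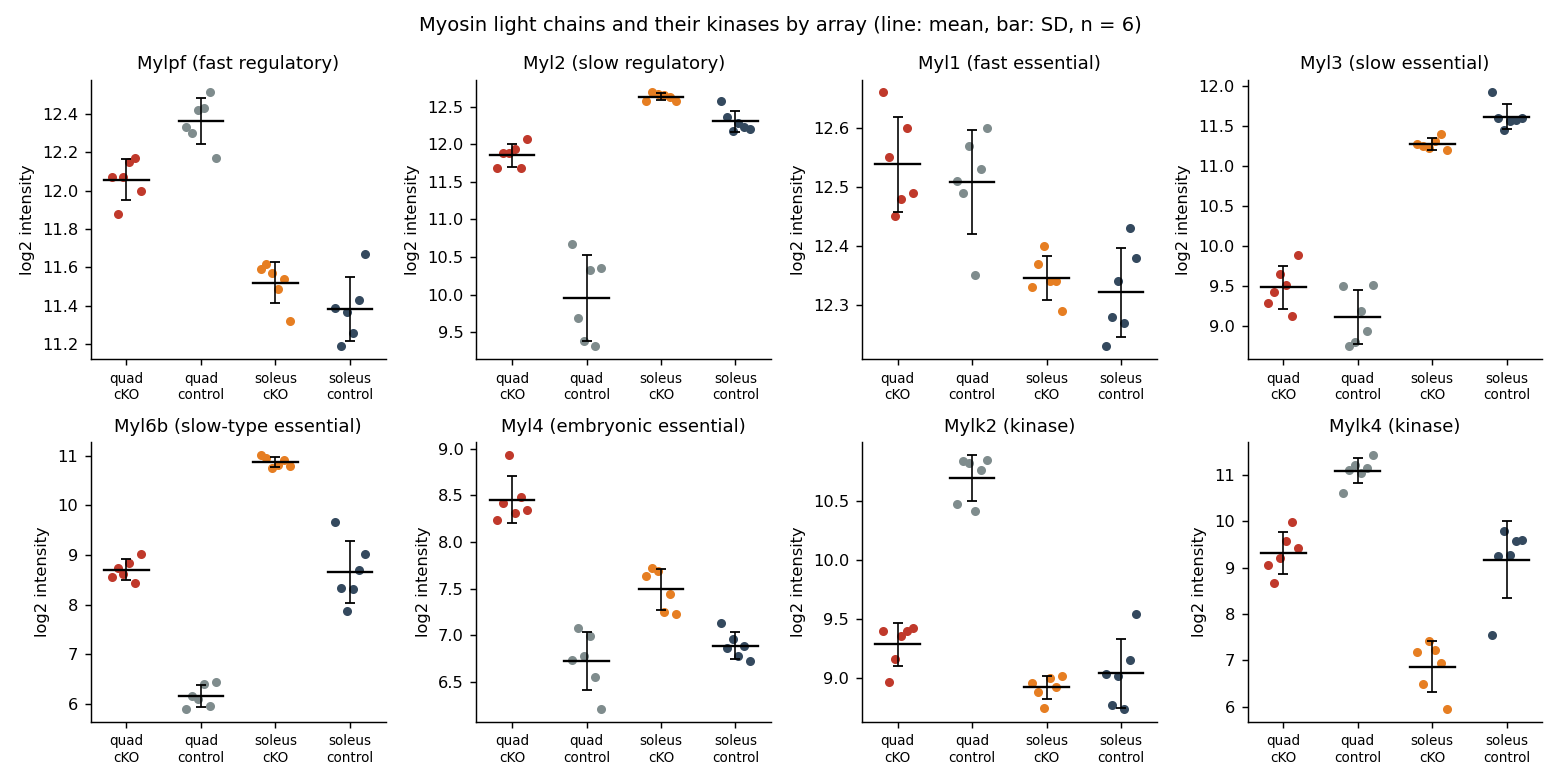
Log2 intensity of the 8 genes on each array, by group (points, 6 arrays each; line, mean; bar, SD), with a y-axis of its own for every gene. Myl6b lay higher on every cKO array than on any control array of the same muscle and Mylk4 lower, while Myl1 overlapped between cKO and control in both muscles.

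**Figure D2:**
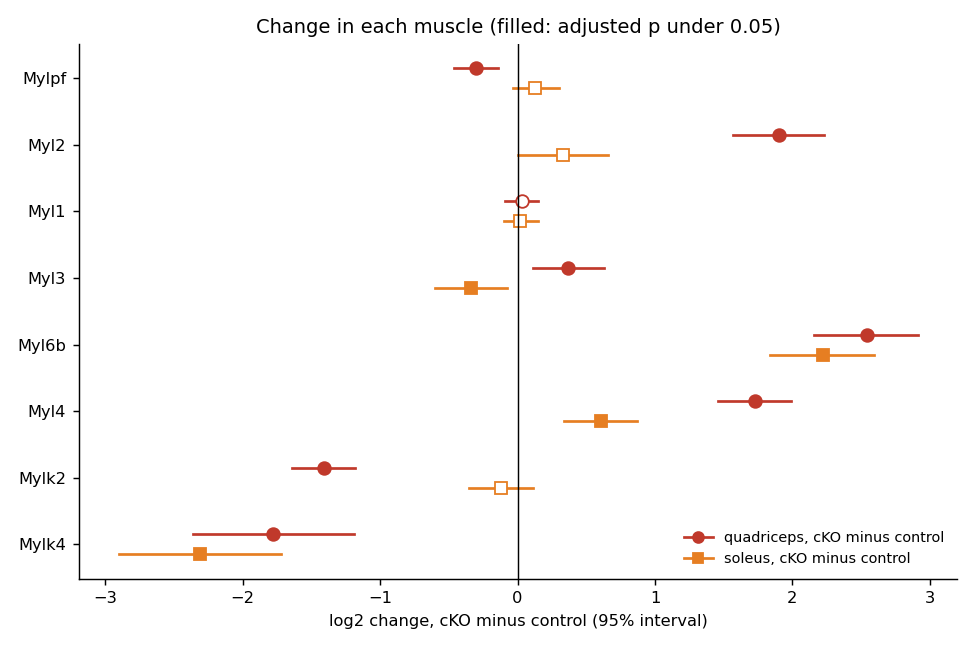
Difference in log2 intensity, cKO minus control, with its 95% confidence interval, for quadriceps (circles) and soleus (squares); filled symbols had a limma adjusted p under 0.05. Myl6b and Mylk4 had intervals that overlap between the muscles, and the Myl2 change was 1.90 in quadriceps and 0.33 in soleus.

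The regulatory chains are Mylpf, the fast skeletal form (chr7:127208848-127214288), and Myl2, the slow skeletal and ventricular form (chr5:122092724-122113473). Myl2 had the larger change in quadriceps. Its lowest, median and highest values were 11.68, 11.88 and 12.07 in quadriceps cKO and 9.31, 10.01 and 10.67 in quadriceps controls. Every cKO array read above every control array, and the controls spread over more than 1 log2 unit. Myl2 was 3.73-fold higher in cKO (log2 change 1.90 with an SE of 0.16, limma adjusted p = 5.3e-10). For soleus the same 3 values were 12.58, 12.64 and 12.69 in cKO and 12.18, 12.26 and 12.57 in controls. The soleus groups did not overlap, but the change of 0.33 (SE 0.16, 95% interval 0.00 to 0.66) did not pass (limma adjusted p = 0.145). It passed when only the soleus arrays were fitted (limma adjusted p = 0.00256) and with array quality weights (0.36, limma adjusted p = 0.0305).

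Mylpf moved the other way in quadriceps and by less. It read 11.88, 12.07 and 12.17 in quadriceps cKO and 12.17, 12.38 and 12.51 in quadriceps controls (lowest, median, highest), so the groups met at 12.17 without crossing. It was 1.23-fold lower in cKO (log2 change -0.30 with an SE of 0.08, limma adjusted p = 0.00352). Soleus arrays read 11.32, 11.55 and 11.62 in cKO and 11.19, 11.38 and 11.67 in controls, which overlap (change 0.13, 95% interval -0.03 to 0.30, limma adjusted p = 0.247). Myl2 and Mylpf lay high on the intensity scale: Mylpf above the 99th percentile of its array on all 24 arrays (99.18 to 99.79), and Myl2 between percentiles 94.59 and 99.83. Whether the signal was still proportional to RNA there was not tested.

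The essential chains are Myl1, Myl3, Myl6b and Myl4. Myl1 (chr1:66924295-66947932) encodes the fast skeletal forms, a long and a short one from alternative promoters, which the probe set used here does not separate. It read 12.45, 12.52 and 12.66 in quadriceps cKO and 12.35, 12.52 and 12.60 in quadriceps controls, and 12.29, 12.34 and 12.40 in soleus cKO and 12.23, 12.31 and 12.43 in soleus controls. The groups of each muscle overlapped almost fully. The change was 0.03 in quadriceps (95% interval -0.09 to 0.15, limma adjusted p = 0.724) and 0.02 in soleus (-0.10 to 0.15, limma adjusted p = 0.814), so a change larger than 0.15 lies outside both intervals. Its percentile on the array was 99.74 to 99.83, at the top of the scale. Whether the signal was still proportional to RNA there was not tested, so the intervals hold for signal only. A further quantile normalization gave a quadriceps change of 0.14 that passed (limma adjusted p = 0.0334).

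Myl3 (chr9:110763678-110769802), the slow skeletal and ventricular essential chain, changed by small amounts of opposite sign. It read 9.13, 9.48 and 9.89 in quadriceps cKO and 8.75, 9.06 and 9.52 in quadriceps controls, with overlap between the groups, and was 1.29-fold higher in cKO (log2 change 0.37 with an SE of 0.13, limma adjusted p = 0.0211). Soleus arrays read 11.20, 11.27 and 11.40 in cKO and 11.45, 11.59 and 11.92 in controls. Here every cKO array was below every control array (1.27-fold lower, a log2 change of -0.34 with an SE of 0.13, limma adjusted p = 0.049). The soleus call was at the edge of the threshold and was lost when any of 16 of the 24 arrays was left out, up to a limma adjusted p of 0.113 and a change of -0.28 without soleus control 1. The quadriceps call was lost without quadriceps control 2 (limma adjusted p = 0.0667), quadriceps control 3 (0.0591) or quadriceps cKO 6 (0.0678).

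Myl6b (chr10:128494157-128498685), an essential chain found in slow skeletal muscle and in non-muscle cells, had the largest increase of the 8 genes in both muscles. Its lowest, median and highest values were 8.44, 8.67 and 9.03 in quadriceps cKO and 5.90, 6.13 and 6.45 in quadriceps controls. They were 10.75, 10.86 and 11.01 in soleus cKO and 7.88, 8.52 and 9.66 in soleus controls. Each cKO group lay more than 1 log2 unit above the highest control of its muscle, and the soleus controls were the most scattered group (SD 0.63, n = 6). Myl6b was 5.81-fold higher in quadriceps cKO (log2 change 2.54, SE 0.18, limma adjusted p = 3.1e-11) and 4.65-fold higher in soleus cKO (2.22, SE 0.18, limma adjusted p = 1.03e-09).

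Myl4 (chr11:104546017-104587215), the essential chain of embryonic muscle and the heart atrium, was higher in cKO of both muscles. It read 8.24, 8.38 and 8.93 in quadriceps cKO and 6.21, 6.76 and 7.08 in quadriceps controls. In soleus it read 7.23, 7.54 and 7.72 in cKO and 6.72, 6.87 and 7.13 in controls. Neither pair of groups overlapped, and in soleus the nearest arrays were a cKO at 7.23 and a control at 7.13. The change was 3.32-fold in quadriceps (log2 change 1.73, SE 0.13, limma adjusted p = 5.89e-11) and 1.52-fold in soleus (0.61, SE 0.13, limma adjusted p = 0.000851). Of 8 heart markers, 2 rose and 1 fell in each muscle. Of all genes tested, 22.3% rose and 17.7% fell in quadriceps, and 13.2% and 9.94% in soleus. Myh6 and Tnnt2 rose in both. The atrial regulatory chain Myl7 fell in quadriceps, at a level near the dim limit, and the gap junction gene Gja5 fell in soleus. The 8 averaged 5.0 to 5.29 in quadriceps cKO, 4.84 to 5.0 in quadriceps controls, 5.31 to 5.48 in soleus cKO and 5.14 to 5.48 in soleus controls.

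Mylk2 (chr2:152911281-152923065) encodes the skeletal muscle light chain kinase, which phosphorylates the fast regulatory chain. It read 8.97, 9.38 and 9.42 in quadriceps cKO and 10.41, 10.79 and 10.84 in quadriceps controls. The highest cKO array was about 1 log2 unit below the lowest control array. Mylk2 was 2.65-fold lower in quadriceps cKO (log2 change -1.41 with an SE of 0.11, limma adjusted p = 2.11e-10). Soleus arrays read 8.75, 8.94 and 9.02 in cKO and 8.74, 9.03 and 9.54 in controls, with overlap. That change of -0.12 did not pass (95% interval -0.35 to 0.11, limma adjusted p = 0.483).

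Mylk4 (chr13:32700824-32806773) encodes a less studied member of the light chain kinase family. It read 8.68, 9.31 and 9.98 in quadriceps cKO and 10.62, 11.13 and 11.43 in quadriceps controls, 3.42-fold lower in cKO (log2 change -1.78 with an SE of 0.29, limma adjusted p = 1.8e-05). Soleus arrays read 5.95, 7.06 and 7.41 in cKO and 7.54, 9.43 and 9.80 in controls, 4.96-fold lower in cKO (-2.31 with an SE of 0.29, limma adjusted p = 7.57e-07). Neither pair of groups overlapped, though 1 control array, soleus control 1 at 7.54, lay near the cKO arrays while the other 5 read 9.25 to 9.80. Without that array the soleus change was -2.64 (limma adjusted p = 8.37e-10). Mylk4 had SDs within groups of 0.45 in quadriceps cKO, 0.27 in quadriceps controls, 0.55 in soleus cKO and 0.83 in soleus controls (n = 6 each); in quadriceps controls Myl2 (0.57), Myl3 (0.34) and Myl4 (0.31) varied more.

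The response to cKO differed between the muscles for 5 of the 8 genes, tested as the quadriceps change minus the soleus change; 12.3% of all genes passed this test, 7.39% higher and 4.89% lower. Higher differences were 60.2% of the called, and 45.6%, 48.7% and 49.3% with median centring, 75th percentile centring and a further quantile normalization. The quadriceps change was the higher one for Myl2 (difference 1.57, SE 0.23, limma adjusted p = 4.52e-05), Myl4 (1.12, SE 0.18, 0.000188) and Myl3 (0.71, SE 0.18, 0.00909). It was the lower one for Mylk2 (-1.29, SE 0.16, limma adjusted p = 5.88e-06) and Mylpf (-0.44, SE 0.11, 0.011). Myl2 averaged 12.30 in soleus controls and 9.95 in quadriceps controls. Whether its signal stayed proportional to RNA at the higher level was not tested. For Myl6b the difference was 0.32 (95% interval -0.21 to 0.85, limma adjusted p = 0.46) and for Mylk4 it was 0.53 (-0.29 to 1.36, limma adjusted p = 0.426). Both intervals reach from below 0 to above it. For Mylk4 the difference passed without soleus control 1 (0.86, limma adjusted p = 0.0488).

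Soleus and quadriceps of the controls differed in 7 of the 8 genes, where 33.5% of all genes were called, 15.2% higher and 18.3% lower in soleus. The higher were 45.4% of the called, with 22.3% under median and 56.2% under 75th percentile centring. Soleus controls had 5.67-fold more signal of Myl3 (log2 difference 2.50), 5.62-fold more of Myl6b (2.49) and 5.10-fold more of Myl2 (2.35) than quadriceps controls. They had 3.79-fold less of Mylk4 (-1.92, limma adjusted p = 8.02e-06), 3.13-fold less of Mylk2 (-1.65), 1.96-fold less of Mylpf (-0.97) and 1.14-fold less of Myl1 (-0.19, limma adjusted p = 0.0152). Myl4 did not pass (0.17, 95% interval -0.10 to 0.43, limma adjusted p = 0.34). The groups did not overlap for 6 of the 8, against 11.7% of all genes, and Myl1 and Myl4 were the exceptions.

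Between the cKO muscles all 8 genes passed, where 28.8% of all genes did, 11.9% higher and 16.9% lower in soleus. The higher were 41.3% of the called, with 24% under median centring, 68.6% under 75th percentile centring and 53.1% under a further quantile normalization. Myl6b (4.50-fold, log2 difference 2.17), Myl3 (3.46-fold, 1.79) and Myl2 (1.72-fold, 0.78) were higher in soleus cKO than in quadriceps cKO. Mylk4 (5.49-fold, -2.46), Myl4 (1.94-fold, -0.96), Mylpf (1.45-fold, -0.54), Mylk2 (1.28-fold, -0.36) and Myl1 (1.14-fold, -0.19) were lower. The groups did not overlap for 7 of the 8 genes, against 15.9% of all genes, and Mylk2 was the exception. The Myl1 and Mylk2 calls were lost when arrays were centred on their 75th percentile (limma adjusted p = 0.174 and 0.0519).

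Quadriceps cKO was also set against soleus control, a comparison that shares arrays with those above. Myl6b averaged 8.70 ± 0.21 in quadriceps cKO and 8.65 ± 0.63 in soleus controls (SD, n = 6 each; difference 0.05, 95% interval -0.33 to 0.42, limma adjusted p = 0.843). Mylk4 averaged 9.32 ± 0.45 in quadriceps cKO and 9.17 ± 0.83 in soleus controls (0.15, -0.44 to 0.73, limma adjusted p = 0.686). Mylk2 averaged 9.28 ± 0.18 in quadriceps cKO and 9.04 ± 0.29 in soleus controls (0.24, 0.01 to 0.47, limma adjusted p = 0.078). These 3 genes did not pass, while 50.3% of all genes did, 26.2% higher and 24.2% lower in quadriceps cKO. The higher were 52.0% of the called, with 73.0% under median centring and 29.8% under 75th percentile centring, which moved the median of all genes to -0.13. Myl3 remained 4.39-fold lower (log2 difference -2.13) and Myl2 1.37-fold lower (-0.45, limma adjusted p = 0.0219) in quadriceps cKO than in soleus controls. Myl4 was 2.96-fold higher (1.56), Mylpf 1.59-fold higher (0.67) and Myl1 1.16-fold higher (0.22). The groups did not overlap for 5 of the 8 genes, against 23.8% of all genes. Without soleus control 1 the Myl2 call was lost (-0.40, limma adjusted p = 0.0531), and Mylk2 passed without quadriceps cKO 2 (0.30, 0.0315) or soleus control 6 (0.34, 0.00858).

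Set in order by mean, the 4 groups had a different sequence for most of the genes. Mylk4 was highest in quadriceps controls, lowest in soleus cKO, and in between in quadriceps cKO and soleus controls, which did not differ beyond their spread. Myl6b had the reverse sequence, highest in soleus cKO and lowest in quadriceps controls, with the same pair in between. Mylk2 was highest in quadriceps controls, and its other neighbours in the order, quadriceps cKO over soleus controls over soleus cKO, did not pass the test. Mylpf ran from quadriceps controls over quadriceps cKO to the soleus groups, which did not pass against each other. Myl2 was highest in soleus cKO, then soleus controls (not passing against each other), then quadriceps cKO, then quadriceps controls. Myl3 was highest in soleus controls, then soleus cKO, quadriceps cKO and quadriceps controls, each step passing. Myl4 was highest in quadriceps cKO, then soleus cKO, with the control groups last and not passing against each other. Myl1 was ordered by muscle, with the quadriceps groups above the soleus groups and no call between genotypes.

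The difference of a pair of genes on the same array does not move when a constant is added to that array's log2 values, as in centring. It was therefore described for 4 pairs, without a test. Other processing steps can still move it. Its size is not a ratio of RNA amounts, and only its shift between groups is read. The regulatory pair, Myl2 minus Mylpf, averaged -0.21 ± 0.22 in quadriceps cKO and -2.41 ± 0.64 in quadriceps controls (SD, n = 6 each), a shift of 2.20 that every cKO array showed. In soleus it averaged 1.11 ± 0.09 in cKO and 0.92 ± 0.25 in controls, a shift of 0.20 with overlap, which was 0.12 without soleus control 6. The essential pair, Myl3 minus Myl1, averaged -3.05 ± 0.33 in quadriceps cKO and -3.39 ± 0.35 in quadriceps controls, with overlap. In soleus it averaged -1.07 ± 0.08 in cKO and -0.70 ± 0.21 in controls, a shift of -0.37 with every cKO array below every control array. The shift of the slow against the fast chain in quadriceps cKO was thus 2.20 for the regulatory pair and 0.34 for the essential pair. Between the control muscles it was 3.32 and 2.69, soleus over quadriceps.

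Myl6b minus Myl1 averaged -3.84 ± 0.27 in quadriceps cKO and -6.35 ± 0.26 in quadriceps controls, a shift of 2.51. In soleus it averaged -1.47 ± 0.11 in cKO and -3.67 ± 0.65 in controls, a shift of 2.19. No array of one genotype reached the other in either muscle. Mylk4 minus Mylk2 averaged 0.04 ± 0.34 in quadriceps cKO and 0.41 ± 0.18 in quadriceps controls, a shift of -0.37 with overlap. In soleus it averaged -2.06 ± 0.60 in cKO and 0.13 ± 0.83 in controls. The soleus groups overlapped through soleus control 1 at -1.50, while the other 5 controls read 0.06 to 0.78 and the highest cKO array -1.34.

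**Figure D3:**
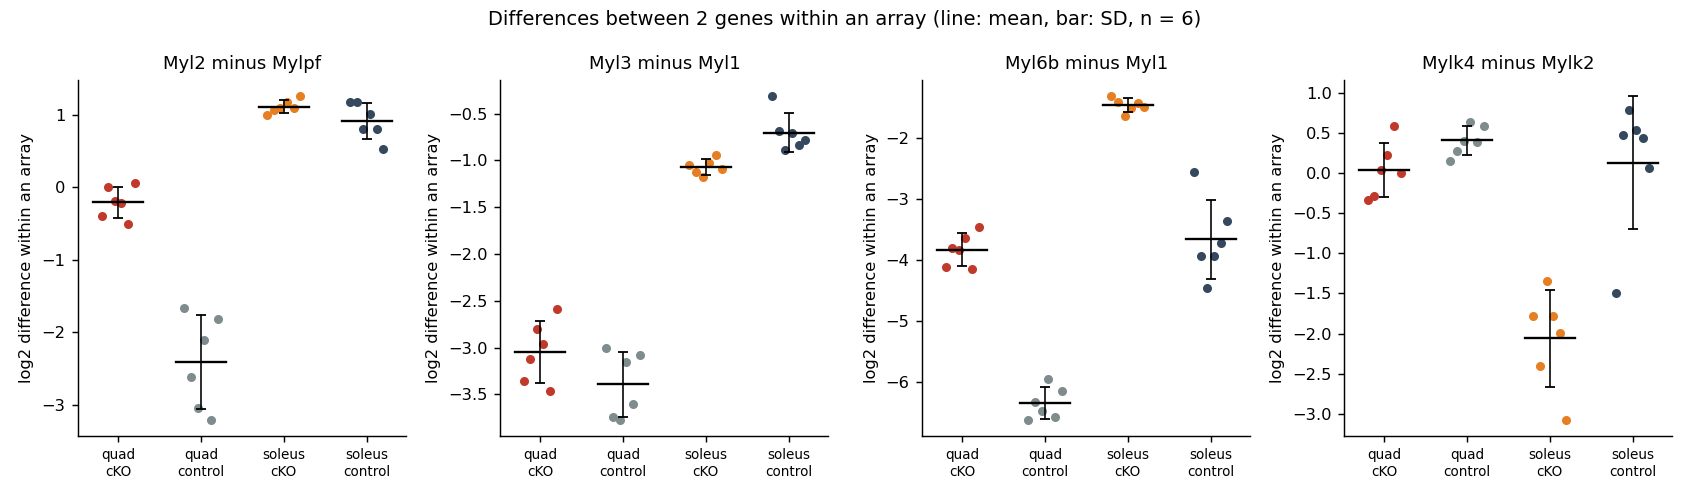
Within-array log2 differences of 4 gene pairs by group (points, 6 arrays each; line, mean; bar, SD). Myl2 minus Mylpf shifted by 2.20 in quadriceps and 0.20 in soleus, and Mylk4 minus Mylk2 by -0.37 in quadriceps and -2.19 in soleus.

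Within groups some of the genes moved together from array to array. After subtracting each group's mean, Myl2 and Myl3 correlated with r = 0.81 over the 24 arrays, the highest of any pair of the 8 genes. Quadriceps and soleus arrays may share animals, so no p is given. Quadriceps controls weigh most in this r. The SDs of Myl2 and Myl3 were 0.57 and 0.34 there, against 0.04 and 0.07 in soleus cKO, so r need not hold within every group. In quadriceps controls 1 to 6 Myl2 read 10.67, 9.69, 9.38, 10.33, 9.31 and 10.35. On the same arrays Myl3 read 9.50, 8.75, 8.80, 9.19, 8.94 and 9.52. The ranking of the arrays was alike for these chains, with numbers 1, 4 and 6 uppermost for both. Mylpf, the fast regulatory chain, read 12.33, 12.30, 12.42, 12.43, 12.51 and 12.17 there, without that ranking. The slow fibre markers averaged 9.97, 8.67, 8.56, 8.62, 8.40 and 9.78, with numbers 1 and 6 uppermost. In quadriceps cKO, array 6 had the highest Myl2 (12.07), Myl3 (9.89) and Myl6b (9.03) of its group. Myl6b did not follow Myl2 and Myl3 in quadriceps controls, where number 1 had its lowest value (5.90). Over the 24 arrays its deviations correlated with those of Myl2 at r = 0.30 and with those of Myl3 at 0.48. Myl4 was highest on quadriceps cKO 3, at 8.93, with the other 5 arrays at 8.24 to 8.48.

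Other light chains gave a mixed picture. All 6 listed (Myl6, Myl7, Myl9, Myl10, Myl12a, Myl12b) were kept. In quadriceps 2 were higher and 1 lower in cKO, with a median change of 0.10, and in soleus 1 was higher and 2 lower, with a median of -0.14. Among all genes tested, 22.3% were higher and 17.7% lower in quadriceps, and 13.2% and 9.94% in soleus. Myl12a, a regulatory chain of non-muscle and smooth muscle myosin, had the smallest p of the list in both muscles. It averaged 10.71 ± 0.10 in quadriceps cKO and 9.27 ± 0.12 in quadriceps controls (log2 change 1.43 with an SE of 0.09, limma adjusted p = 9.16e-13). The soleus means were 11.22 ± 0.09 in cKO and 10.47 ± 0.22 in controls (0.75, SE 0.09, limma adjusted p = 2.31e-07; SD, n = 6 each). Its change was larger in quadriceps than in soleus (difference 0.68, limma adjusted p = 0.000552). The neighbouring gene Myl12b, a close paralog whose transcripts the probes may not fully separate, rose by 0.36 in quadriceps (limma adjusted p = 0.00328) and had a change of -0.13 in soleus (0.369). Myl7 fell by 0.39 in quadriceps, and Myl9 and Myl10 fell by 0.44 and 0.36 in soleus. Myl7 averaged 3.91 in quadriceps cKO and 4.30 in quadriceps controls. These levels are near the dim limit, the 30th percentile of an array (3.51 to 3.72). Myl6, which lies beside Myl6b in the genome, did not pass in either muscle (0.14, limma adjusted p = 0.321, in quadriceps and 0.26, 0.0898, in soleus).

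Of 19 genes of light chain phosphorylation, 17 were read by a probe set of their own. In quadriceps 8 were higher and 5 lower in cKO (median change 0.16), and in soleus 4 were higher and 3 lower (median -0.09). Of all genes tested, 22.3% were higher and 17.7% lower in quadriceps, and 13.2% and 9.94% in soleus. A targeting subunit of myosin phosphatase, Ppp1r12a, averaged 8.23 ± 0.08 in quadriceps cKO and 7.51 ± 0.27 in quadriceps controls (log2 change 0.72, limma adjusted p = 6.42e-07). It had a change of 0.07 in soleus (limma adjusted p = 0.649). The phosphatase inhibitor Ppp1r14c was lower in both muscles. It averaged 6.99 ± 0.19 in quadriceps cKO and 8.23 ± 0.11 in quadriceps controls (-1.24, limma adjusted p = 3.61e-09), and 6.55 ± 0.24 in soleus cKO and 7.51 ± 0.28 in soleus controls (-0.96, limma adjusted p = 5.55e-07). A related inhibitor, Ppp1r14b, was higher in both, with changes of 0.31 in quadriceps (limma adjusted p = 0.00761) and 0.57 in soleus (limma adjusted p = 3.52e-05). The calmodulin gene Calm3, whose product activates the kinases, averaged 9.59 ± 0.16 in quadriceps cKO and 10.52 ± 0.25 in quadriceps controls (-0.93, limma adjusted p = 6.8e-08). In soleus it averaged 9.44 ± 0.14 in cKO and 9.33 ± 0.16 in controls (0.11, limma adjusted p = 0.504). Calm2, which encodes the same protein, was lower in both muscles, with changes of -0.64 in quadriceps (limma adjusted p = 3.04e-05) and -0.43 in soleus (limma adjusted p = 0.00361). The difference between muscles passed for 4 of the 17 genes, 3 higher and 1 lower, where 12.3% of all genes passed. Among the 4 were Calm3 (-1.03, limma adjusted p = 3.48e-05), Ppp1r12a (0.65, 0.00153) and the smooth muscle kinase Mylk (0.64, 0.000769). Mylk averaged 7.13 ± 0.10 in quadriceps cKO against 6.89 ± 0.15 in quadriceps controls, and 6.63 ± 0.11 in soleus cKO against 7.02 ± 0.18 in soleus controls (SD, n = 6 each). Of 8 smooth muscle and pericyte markers, 4 were lower and 1 higher in soleus cKO, at 7.65 to 7.88 in cKO and 7.88 to 8.12 in controls. In quadriceps 1 was higher and 0 lower, at 7.82 to 7.98 in cKO and 7.57 to 8.04 in controls. The part of these cells in the Mylk changes was not tested. The cardiac kinase Mylk3 did not pass in quadriceps (0.05, limma adjusted p = 0.714) or soleus (0.22, limma adjusted p = 0.088).

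**Figure D4:**
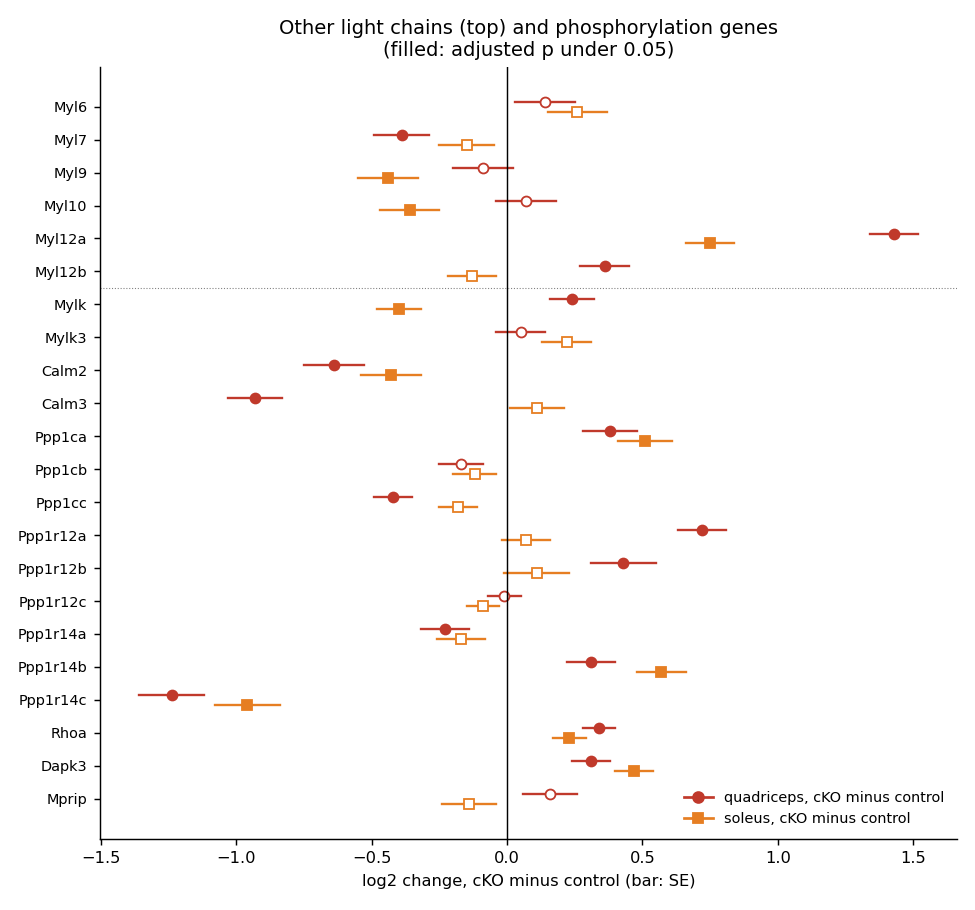
Difference in log2 intensity, cKO minus control,, with its SE, of the other light chains and of phosphorylation genes, for quadriceps (circles) and soleus (squares); filled symbols had a limma adjusted p under 0.05. Myl12a was higher in both muscles (1.43 and 0.75), Ppp1r14c was lower in both (-1.24 and -0.96), and Calm3 was lower in quadriceps (-0.93) and changed by 0.11 in soleus.

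The heavy chains that carry these light chains are given for comparison. Of 10 sarcomeric heavy chain genes 9 were kept, and Myh15 was dim on all arrays. In quadriceps 6 were higher in cKO and none lower (median change 1.01), against 22.3% and 17.7% of all genes tested. The 6 included the embryonic Myh3 (5.38), the perinatal Myh8 (2.81), the slow Myh7 (2.33) and the fast Myh2 (1.01). In soleus 3 were higher and 3 lower (median 0.25), against 13.2% and 9.94% of all genes tested. Myh3 (3.93) and Myh8 (1.14) were among the higher, and the fast Myh1 (-1.59) and Myh4 (-2.56) among the lower. Myh7, the usual partner of Myl2 and Myl3, averaged 12.11 ± 0.17 in quadriceps cKO and 9.78 ± 0.97 in quadriceps controls, and 12.96 ± 0.03 in soleus cKO and 12.56 ± 0.18 in soleus controls (SD, n = 6 each). Its soleus change of 0.40 (SE 0.25) did not pass (limma adjusted p = 0.286). Whether its signal was still proportional to RNA at these high levels was not tested.

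For each gene the other genes of most similar level over the 24 arrays were named, out of 14981 with an established symbol. The 4 groups set most of this likeness, quadriceps and soleus arrays may share animals, and no p is given. Myl2 was closest to the slow troponins Tnnc1 (r = 0.994) and Tnnt1 (0.993) and to the Z-disc gene Myoz2 (0.984). The same 3 genes led for Myl2 when group means were subtracted, with r = 0.942, 0.937 and 0.912. They also led for Myl3 on that measure (0.876, 0.861 and 0.844), although by level Myl3 was closest to Sim1 (0.968), Homer2 (0.966) and Rcan2 (0.959). Mylk4 was closest by level to the transcription factor Sox6 (0.978), which was second by deviation as well (0.775), then to Prr33 and the fast troponin Tnnc2 (0.965 each). Myl6b was closest to Nlrc3 (0.961), Galns and Sbk3 (0.959 each), and Myl4 to the perinatal heavy chain Myh8 (0.955), Ripply1 (0.952) and Ptprf (0.945). Mylk2 was closest to Jph2 (0.969), Dnase1l1 (0.966) and Slc37a4 (0.963), and Mylpf to Prkag3 (0.962), Atp1b2 (0.961) and Stbd1 (0.960). Myl1, which varied least, had the weakest best match of the 8, Cdk7 (0.916), followed by Hps5 (0.908) and Aplp2 (0.900).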

How the data were processed

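The authors deposited 1 intensity per probe set and array, on a linear scale from 1.76 to 10074.6, which was turned to log2 here. Per the submitters' processing notes the values came from Affymetrix Expression Console with RMA (background correction, quantile normalization and probe set summary), and the build was mm10; tool versions: not given in the sources used here. Per the labels' protocols, tissue was kept in RNAlater, RNA was isolated with a Qiagen RNeasy fibrous tissue kit and a WT Plus reagent added the biotin label. Of 35557 probe sets, 21789 had 1 gene symbol, 1621 several and 12147 none; only the first kind was used, with symbols updated through Entrez numbers (21698 matched RefSeq, GRCm38.p6). For the 999 genes with several probe sets, the one of highest mean was taken. A gene was kept if above the array's 30th percentile on at least 6 arrays, which removed 3939 genes (19.8%).

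Titles of the samples gave the groups. The 24 arrays entered 1 linear model with a mean per group (limma 3.58.1 in R 4.3.3, default eBayes, 20 residual degrees of freedom, prior 6.52), checked on simulated data. P-values are two-sided, adjusted by Benjamini-Hochberg over 15999 genes, with a threshold of 0.05. The labels call the samples biological replicates. The number of arrays limits precision: the median SE of a change was 0.10, and 0.14 for a difference of changes. The genes, lists and tests were chosen with earlier results of these data known. Named genes are all 8, up to 5 called genes of each companion list per comparison by smallest p, and the 3 most similar genes by level and by deviation; Myl6, Mylk3 and values given beside a called gene for the other muscle fall outside this rule. Some items of the lists are not reported here. No slide or scan batch was named in the labels used here.

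Replicate numbers 1 to 6 recur in every group. Deviations from the group means of quadriceps and soleus with the same genotype and number correlated between 0.22 and 0.45 in cKO and between 0.16 and 0.31 in controls, best with their own number in 6 of 6 pairs each, so these were treated as muscles of 1 animal in a blocked alternative, although number 4 of cKO differs in age between the muscles. Between genotypes of a muscle the correlations were -0.15 to 0.17 in quadriceps and 0.04 to 0.32 in soleus. They were best with their own number in 3 of 6 pairs in quadriceps and 4 of 6 in soleus, although these are different animals. The number may thus mark something shared besides the animal, which was not tested. Alternatives were centring on the median or the 75th percentile, a further quantile normalization, no filter or one at the 50th percentile, the mean of probe sets, log2(value + 16), array weights, trend and robust eBayes, only the arrays compared, replicate blocks, age as a covariate, and leaving out each array.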

Additional observations from a re-analysis of the deposited data

Results flagged for a closer look

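Arrays that stood apart within their group were looked for among 32 combinations of gene and group, by the gap of the extreme array to its nearest neighbour as a share of the group's range, against Dixon's critical value. There were 3 such arrays, and chance gives about 1 in 20 groups. Mylk4 on soleus control 1 was at 7.54, and the nearest array was at 9.25 (share 0.755). Myl3 on the same array was at 11.92, and the nearest was at 11.60 (share 0.677). Myl4 on quadriceps cKO 3 was at 8.93, and the nearest was at 8.48 (share 0.657). The cKO change differed between the muscles, by limma's test of quadriceps change minus soleus change, for Myl2 (1.57), Myl4 (1.12), Myl3 (0.71), Mylpf (-0.44) and Mylk2 (-1.29), with standard errors from 0.11 for Mylpf to 0.23 for Myl2.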

How the results depend on the processing

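Of 1768 values of the 8 genes under alternatives, 1152 of them with 1 array left out, 1728 kept their side of the threshold, 31 lost a call, 9 gained one and 0 called values changed direction. Uncalled values near 0 did change sign, for Myl1 in both muscles with 75th percentile centring (-0.05 and -0.01) and for Myl6b and Mylk4 in quadriceps cKO against soleus control. The number of the 8 genes called ranged, leaving out each array, from 6 to 7 in quadriceps, 3 to 4 in soleus, 5 to 6 for the difference, 7 to 7 between control muscles, 8 to 8 between cKO muscles and 4 to 6 for quadriceps cKO against soleus control. The other settings gave 6 to 8, 3 to 6, 5 to 5, 6 to 7, 6 to 8 and 4 to 6. Myl3 was the gene most often affected: besides single arrays, its soleus call was lost with median centring (limma adjusted p = 0.078), a further quantile normalization (0.0782) and no filter (0.0561), and its quadriceps call with 75th percentile centring (0.0709) and only the arrays compared (0.0701). The Mylpf change in soleus passed with array weights (0.18, 0.0471), and the Myl1 difference between control muscles was lost with 75th percentile centring (0.0525) and only the arrays compared (0.0759). For quadriceps cKO against soleus control, Myl1 was lost with 75th percentile centring (0.19), Myl2 with median centring (0.0641), and Mylk2 passed with median centring (0.34, 0.024) and array weights (0.30, 0.0149). With a replicate block, by number or by animal, the 8 genes gave the same counts as without it (7, 4, 5, 7, 8 and 5, in the order above) and no call of theirs changed. Over all genes, the count for the difference between muscles was 1966, against 2952 with the animal block and 3570 with array weights. Leaving out single arrays, within-array differences near 0 changed sign: Myl6b minus Myl1, quadriceps cKO minus soleus control, ranged from -0.33 to 0.05, Mylk4 minus Mylk2 from -0.42 to 0.04 for that comparison and from -0.41 to 0.05 for soleus minus quadriceps control. Other settings moved some within-array differences between quadriceps cKO and quadriceps control. Myl3 minus Myl1 ranged from 0.23 to 0.34 and Myl6b minus Myl1 from 2.27 to 2.51. The causes were not tested.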
